A study of Mus musculus with 15 samples.

Results

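The hypertrophy and fetal gene programme of the heart was followed here through 8 named genes: Nppb, Myh6, Myh7, Acta1, Ankrd1, Xirp1, Xirp2 and Rcan1. They were chosen by name as known readouts of cardiac hypertrophy, and they are 8 of the 17447 genes in the count table. All 8 passed the filter on low counts, together with 13013 other genes, so 13021 genes were tested. The samples were 15 heart RNA-seq libraries from male C57BL/6J mice, taken 18 weeks after surgery, in 5 groups of 3. The mice were 6 to 8 weeks old when the experiment began.

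WTSHAM were wild type mice with a sham operation and no kidney excision, for which the study lists no vector. WTCKD were wild type mice with chronic kidney disease (CKD) from subtotal nephrectomy that received the vector. WTCKD + RNLS were wild type CKD mice that received AAV9-cTnT-RNLS, an adeno-associated virus carrying the renalase gene behind the cardiac troponin T promoter, which is active in cardiomyocytes. KOCKD and KOCKD + RNLS were the rnls-/- counterparts with CKD and the vector or the virus. All CKD groups were injected 2 weeks after the second operation. The CKD and the vector cannot be told apart in a comparison with WTSHAM, and KOCKD differs from WTSHAM in genotype as well. A sham group of rnls-/- mice was not analysed here, and the level of Rnls itself was not analysed here. Nothing in the labels states that the 3 libraries of a group came from separate mice, so the p-values measure the spread between these libraries.

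A loaded heart enlarges its muscle cells and often turns part of its transcription back toward the pattern of the fetal heart. In the mouse ventricle this classically means more natriuretic peptide, more of the slow β-myosin heavy chain (Myh7) relative to the fast α-myosin heavy chain (Myh6), and more skeletal α-actin (Acta1). Stretch-responsive genes such as Ankrd1 and the Xin proteins at the intercalated disc, and the calcineurin feedback inhibitor Rcan1, are further common readouts of the same state.

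Depth was similar throughout, with 10480788 to 13424078 reads counted on genes in a library. The 10 cardiomyocyte markers summed to between 79016 and 108217 counts per 1000000 (CPM) in every library. CPM here means counts in that number of reads of a library size scaled by edgeR's TMM method. The 9 skeletal muscle markers summed to between 1.49 and 7.51 CPM, with 5.13 to 7.51 CPM in WTCKD + RNLS and 2.72 to 3.21 CPM in WTCKD. Of the 3 that were tested 1 rose in that comparison, Pvalb, parvalbumin of fast skeletal muscle, by 4.25 on the log2 scale (adjusted p = 0.0278, edgeR), from 0.338, 0 and 0 CPM to 4.01, 1.39 and 1.76 CPM. The part of skeletal muscle in the levels of Acta1 and Myh7 was not tested. The members took between 3.39% and 5.37% of all reads, most of it Myh6. Per length of transcript, in the deposited FPKM values (fragments scaled to transcript length and library size), Myh6 was the highest member in every group, with group means from 4948 to 7148 FPKM. Ankrd1 followed with 773 to 1208 FPKM, and Acta1 had 244 to 639 FPKM. Nppb had 168 to 294 FPKM and Myh7 45.5 to 216 FPKM. Xirp2 (50.5 to 79.9 FPKM), Xirp1 (48.5 to 59.4 FPKM) and Rcan1 (28.5 to 55 FPKM) were low throughout. The ranges of group means overlapped between Acta1 and Nppb, between Nppb and Myh7, and among Myh7, Xirp1, Xirp2 and Rcan1, and in KOCKD + RNLS the mean of Myh7 (216 FPKM) was above that of Nppb (175 FPKM). In bulk tissue, fewer cells of a type and less RNA per cell cannot be told apart.

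The atrial markers and the clock genes varied strongly between libraries. The 7 atrial markers (Nppa, Myl4, Myl7, Sln, Bmp10, Mybphl and Dkk3) summed to 87.9 CPM in WTCKD replicate 3 but to 2588 CPM in WTCKD replicate 2 and 2751 CPM in KOCKD replicate 3. They summed to 134 to 290.4 CPM in KOCKD + RNLS, where Myl7 was at 0.325, 0.662 and 0.749 CPM and Sln at 0 to 0.0937 CPM. The 15 clock genes tested summed to 944 to 1232 CPM in the 6 libraries with the virus and to 496 to 975 CPM in the other 9. This sum adds clock genes that rose with the virus to others that fell, so opposite moves partly cancel in it.

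Few members were called in any comparison at an adjusted p under 0.05 by edgeR's quasi-likelihood test over all genes. Between WTCKD and WTSHAM 0 of the 8 were called, against a background of 2.3% of all genes, while 2 (Xirp1 and Xirp2, both lower in WTCKD) had an unadjusted p under 0.05 and DESeq2 called 0. Between WTCKD + RNLS and WTCKD 1 of 8 was called, Rcan1, against 4.47% of all genes. Between KOCKD + RNLS and KOCKD 2 of 8 were called, Myh6 higher and Rcan1 lower, against 16.1% of all genes. Between KOCKD and WTCKD 0 of 8 were called by edgeR and by DESeq2, and edgeR called 0% of all genes. Nppb and Myh6 had an unadjusted p under 0.05 there. Between KOCKD and WTSHAM 2 of 8 were called, Myh6 and Xirp2, both lower, against 13.8% of all genes. A test of any difference among the 5 groups called Myh6, Xirp2 and Rcan1, against 22.2% of all genes. Under the looser rule that the study used, a minimum fold change with an unadjusted p under 0.05, 1 of 8 members passed between WTCKD and WTSHAM (11.3% of all genes), 1 between WTCKD + RNLS and WTCKD (14.4%), 5 between KOCKD + RNLS and KOCKD (22.3%), 1 between KOCKD and WTCKD (5.62%) and 2 between KOCKD and WTSHAM (21.4%). Each of these is a count out of 8 and is given beside the background share without a test of the difference. The counts called in the other lists below stand beside the same shares of all genes, also without such a test.

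The difference between the genotypes in the response to the virus was tested directly as an interaction. None of the 8 members was called by edgeR or by DESeq2, 0 had an unadjusted p under 0.05, and edgeR called 0% of all genes. Counted by libraries that did not overlap, 1 member of 8 separated WTCKD from WTSHAM (22.5% of all genes did), 2 separated WTCKD + RNLS from WTCKD (21.2%), 5 separated KOCKD + RNLS from KOCKD (40.6%), 3 separated KOCKD from WTCKD (19.3%) and 3 separated KOCKD from WTSHAM (33.8%). The median log2 fold change of the members was -0.18, 0.05, 0.30, 0.20 and -0.12 in these 5 comparisons in the same order, beside -0.01, 0.01, -0.01, 0.00 and -0.01 over all genes tested. The members did not move one way as a set in any of them, with 2 to 6 of the 8 at a positive fold change.

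**Figure D1:**
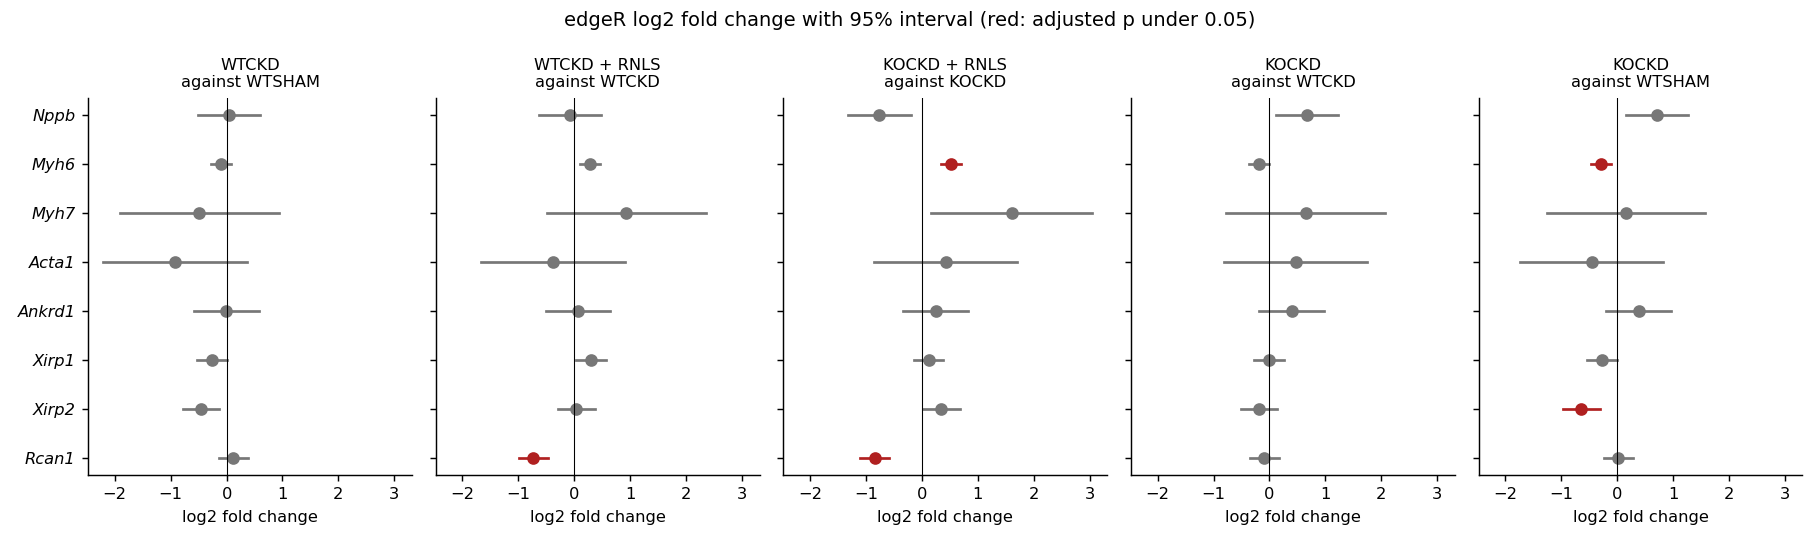
Log2 fold change of each member (rows) in 5 comparisons (panels), fitted by edgeR, with 95% intervals as lines; red marks an adjusted p under 0.05. Rcan1 lies below 0 in both comparisons with the virus, Myh6 above 0 with the virus in the knockout, and the intervals of Myh7 and Acta1 are the widest.

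Nppb encodes B-type natriuretic peptide, a hormone that ventricular muscle releases when its wall is stretched. The gene lies at chr4:147359897-147361314 on the plus strand of mm9 (ENSMUSG00000029019). The 250 bases before its RefSeq start (GRCm38.p6, chr4:147985650-147985899, plus strand) are shown because Nppb separated KOCKD from the other knockout and wild type groups named below. The motifs searched on both strands were the MCAT element with the letters CATTCC, the E-box with the letters CACGTG, the NFAT core with the letters GGAAA, the TATA element with the letters TATAAA and, given by name, the CArG box and the MEF2 site. Capitals mark an MCAT motif (here as GGAATG on the printed strand), the site read by TEAD factors in muscle genes, and TATAAA.
Nppb: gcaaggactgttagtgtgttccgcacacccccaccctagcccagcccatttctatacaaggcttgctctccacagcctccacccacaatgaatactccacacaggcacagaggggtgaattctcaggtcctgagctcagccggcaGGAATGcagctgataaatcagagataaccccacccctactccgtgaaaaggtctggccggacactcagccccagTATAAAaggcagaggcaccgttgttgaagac
An MCAT motif on either strand was present in 12.6% of the 32851 promoters of this length in the table, and TATAAA in 12.4%.

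In WTSHAM Nppb stood at 187, 98.2 and 128 CPM, and in WTCKD at 150.2, 163 and 111 CPM. In WTCKD + RNLS it stood at 76.3, 177 and 149 CPM. These 3 wild type groups overlapped one another throughout. The KOCKD libraries held 193, 264 and 216 CPM, and the KOCKD + RNLS libraries 115, 155 and 128 CPM. All 3 KOCKD libraries were therefore above every library of every other group, the nearest being WTSHAM replicate 1. The mean of KOCKD was 224 ± 35.9 CPM (SD, n = 3) against 141 ± 27.2 CPM in WTCKD, 137 ± 45.1 CPM in WTSHAM and 133 ± 20.8 CPM in KOCKD + RNLS.

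On the log2 scale Nppb was 0.71 ± 0.26 (SE) higher in KOCKD than in WTSHAM, with an adjusted p of 0.0811 in edgeR, and 0.67 ± 0.26 higher than in WTCKD, with an adjusted p of 0.461. It was 0.76 ± 0.26 lower in KOCKD + RNLS than in KOCKD (adjusted p = 0.0597, edgeR), a 1.69-fold difference with a 95% interval on the log2 scale from -1.31 to -0.20. None of these passed the threshold, and the first did without WTSHAM replicate 1 (log2 difference 0.99, adjusted p = 0.0223 by edgeR). Between WTCKD and WTSHAM the log2 difference was 0.04, and between WTCKD + RNLS and WTCKD it was -0.07, with an interval from -0.63 to 0.48. The interaction was -0.68 ± 0.37 (adjusted p = 0.346, edgeR), so a different response of Nppb in the genotypes was not shown.

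The other genes of the natriuretic peptide system were the atrial peptide Nppa, the receptors, and the convertases and proteases that process or degrade the peptides. Of 9 listed, 8 were tested. None of the 8 was called between WTCKD and WTSHAM or between WTCKD + RNLS and WTCKD. Between KOCKD + RNLS and KOCKD 2 rose, Pcsk6, a proprotein convertase, by 0.46 on the log2 scale (adjusted p = 0.0104, edgeR), and Npr2, the receptor of C-type natriuretic peptide, by 0.27 (adjusted p = 0.0319). Between KOCKD and WTSHAM 2 fell, Mme, the peptidase neprilysin, at a log2 fold change of -0.69 (adjusted p = 0.0377, edgeR), and Pcsk6 at -0.39 (adjusted p = 0.0275). The median of the 8 was 0.23 between KOCKD + RNLS and KOCKD and -0.20 between KOCKD and WTSHAM. Nppa, which is both a fetal gene of the ventricle and an atrial gene, ran from 80.7 to 1173 CPM across libraries. Its 3 highest libraries were WTCKD replicate 2 (1173 CPM), KOCKD replicate 3 (937 CPM) and WTSHAM replicate 3 (408 CPM). They held 478, 805 and 310.5 CPM of Myl7. A further WTCKD library held more Myl7 than WTSHAM replicate 3, as the WTCKD mean was 300 CPM with extremes of 1.28 and 478 CPM. In KOCKD + RNLS Nppa reached 284 CPM, with Myl7 at 0.749 CPM or less. The part of atrial tissue in the level of Nppa was not tested.

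**Figure D2:**
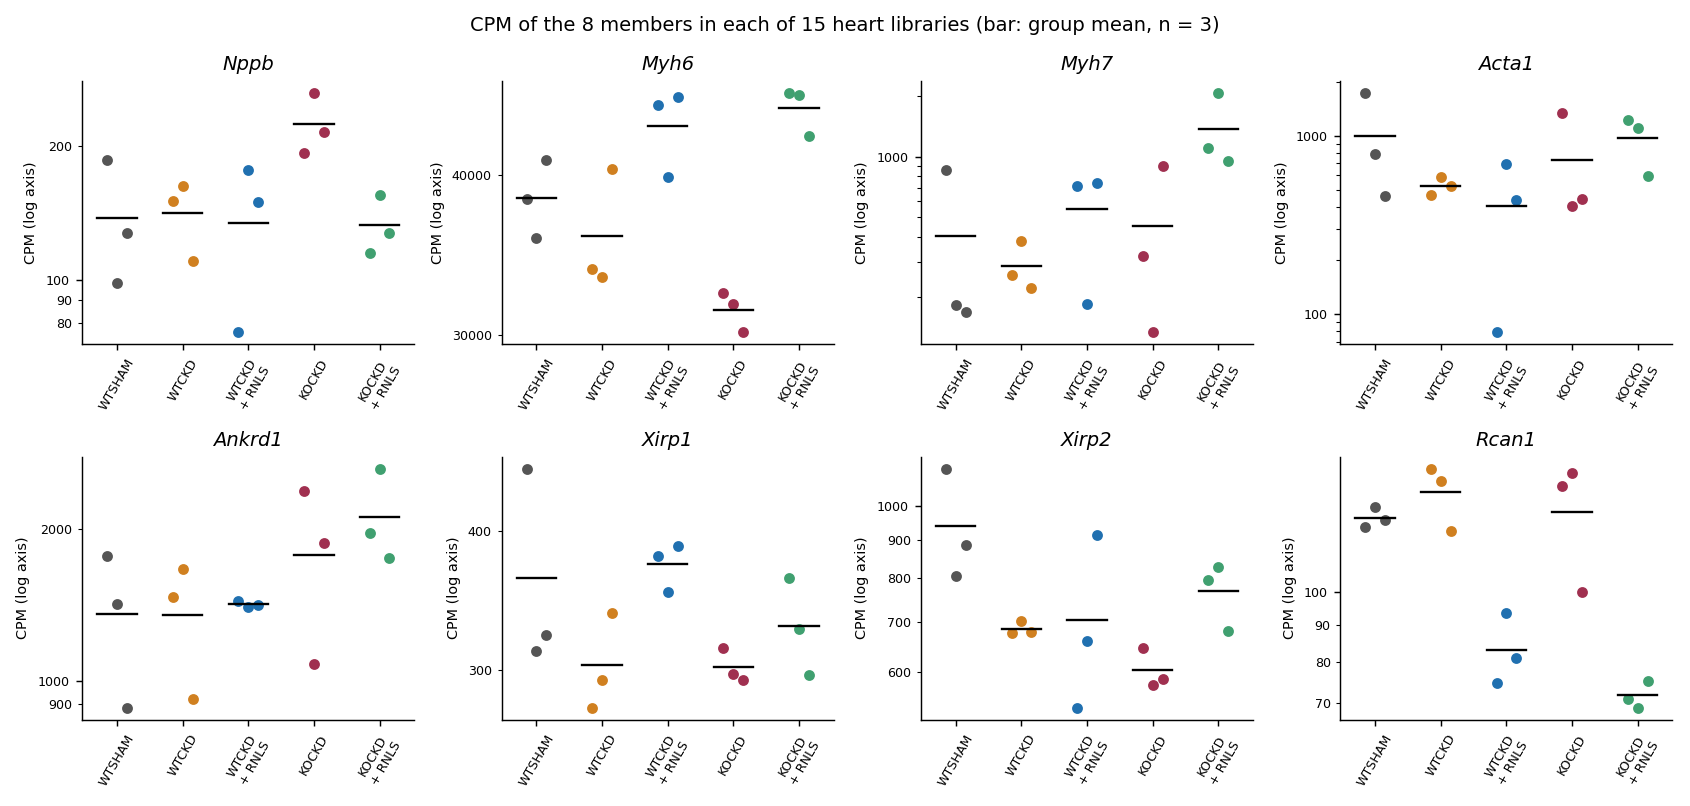
CPM of each member (log axis, 1 panel per gene) in the 15 libraries; points are libraries coloured by group and bars are group means of 3. The 3 KOCKD libraries of Nppb lie above all others, Myh6 is lowest in KOCKD and highest in KOCKD + RNLS, Rcan1 is lower in both groups with the virus, and Myh7 and Acta1 spread widely within groups.

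Myh6 and Myh7 encode the α- and β-myosin heavy chains, the motors of the cardiac sarcomere. They lie head to tail on the minus strand of chromosome 14 in mm9, Myh6 (ENSMUSG00000040752) at chr14:55560758-55585764 and Myh7 (ENSMUSG00000053093) at chr14:55589525-55613471, with 3760 bases between them. Their coding sequences are 91.7% identical over the aligned bases, and 11.5% of the stretches of 100 bases in the Myh6 transcript occur unchanged in that of Myh7. The longest identical stretch is 245 bases long, at bases 4246 to 4490 of the Myh6 coding sequence and 4240 to 4484 of that of Myh7 (mm9 transcripts, GENCODE vM1), and is shown because a read inside it has no single origin.
Myh6 and Myh7: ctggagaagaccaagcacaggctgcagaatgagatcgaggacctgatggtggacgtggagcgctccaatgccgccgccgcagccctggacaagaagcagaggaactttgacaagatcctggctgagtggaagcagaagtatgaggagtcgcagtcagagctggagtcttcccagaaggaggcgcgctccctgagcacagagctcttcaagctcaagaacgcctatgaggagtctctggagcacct
How the authors' counting treated such reads is not given in the sources used here. Myh6 was at least 22 times as abundant as Myh7 in every library. The counts of Myh7 would thus be the more exposed if such reads were assigned to a gene, and whether they were was not tested.

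Myh6 was called in a pair of comparisons, and the 250 bases before its start are printed for that reason (GRCm38.p6, chr14:54966608-54966857, minus strand). Capitals mark the one MCAT motif.
Myh6: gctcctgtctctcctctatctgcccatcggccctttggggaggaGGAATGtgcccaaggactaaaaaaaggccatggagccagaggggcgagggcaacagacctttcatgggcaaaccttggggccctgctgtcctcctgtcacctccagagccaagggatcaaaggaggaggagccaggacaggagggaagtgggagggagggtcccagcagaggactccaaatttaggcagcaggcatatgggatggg
In WTSHAM Myh6 stood at 38319.5, 35696 and 41081 CPM, and in WTCKD at 33729, 33288 and 40437 CPM. In WTCKD + RNLS it stood at 45323, 39801 and 45985 CPM. One library of WTCKD, replicate 3, exceeded the lowest of WTCKD + RNLS, and the other libraries of the pair of groups did not cross. The KOCKD libraries held 32314, 31669 and 30140.5 CPM, below every other library of the series, and the KOCKD + RNLS libraries 46339, 46137 and 42859 CPM. The group means thus ran from 31375 ± 1117 CPM (SD, n = 3) in KOCKD through 35818 ± 4006 in WTCKD, 38366 ± 2693 in WTSHAM and 43703 ± 3395 in WTCKD + RNLS to 45111 ± 1954 in KOCKD + RNLS. Neighbours in that order overlapped, except KOCKD and WTCKD.

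Myh6 rose in KOCKD + RNLS against KOCKD by 0.52 ± 0.08 (SE) on the log2 scale, or 1.44-fold (adjusted p = 0.00217, edgeR). In wild type hearts the difference with the virus was 0.29 ± 0.08, or 1.22-fold, with an adjusted p of 0.0657. It passed in DESeq2 (0.0171) and without WTCKD replicate 3 (0.0243 by edgeR) or WTCKD + RNLS replicate 2 (0.0243). The interaction was 0.24 ± 0.12 (adjusted p = 0.313, edgeR). Against WTSHAM, Myh6 fell in KOCKD at a log2 fold change of -0.29 ± 0.08 (adjusted p = 0.0341, edgeR), a call that was lost without WTSHAM replicate 3, where the adjusted p was 0.13 by edgeR, and without KOCKD replicate 1 (0.0612), 2 (0.0878) or 3 (0.111). The corresponding difference between WTCKD and WTSHAM was -0.10 ± 0.08 with an interval from -0.28 to 0.08. The summed cardiomyocyte markers were 84941 to 87213 CPM in KOCKD + RNLS and 85451 to 92595 CPM in KOCKD. In wild type hearts they summed to 90746 to 108217 CPM in WTCKD + RNLS and 82686 to 92863 CPM in WTCKD. There 9 of the 10 had a positive fold change, with a list median of 0.17. Of these 10 markers 2 rose in KOCKD + RNLS against KOCKD and 0 fell, Ttn by 0.59 (adjusted p = 0.00477, edgeR) and Ryr2, the calcium release channel, by 0.34 (0.0182), with a list median of -0.06. Between KOCKD and WTSHAM 2 rose, Myl2 by 0.43 (adjusted p = 0.0079, edgeR) and Tnni3 by 0.40 (0.0127). In that comparison 2 fell, Ryr2 at -0.47 (adjusted p = 0.00457, edgeR) and Ttn at -0.37 (0.0462). The list median there was 0.20, with 7 of the 10 at a positive fold change. The part of the cardiomyocyte share in the level of Myh6 was not tested.

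For Myh7, WTSHAM libraries stood at 853, 184 and 169 CPM, and WTCKD libraries at 258, 380.2 and 222 CPM. WTCKD + RNLS libraries stood at 714, 185 and 743 CPM. KOCKD libraries stood at 319.6, 134 and 896 CPM, and KOCKD + RNLS libraries at 1107, 2072 and 948 CPM. Every KOCKD + RNLS library exceeded every library of the other groups, and each of the 4 other groups overlapped the next. Myh7 was 1.61 ± 0.68 (SE) higher on the log2 scale in KOCKD + RNLS than in KOCKD, or 3.05-fold, with a 95% interval from 0.17 to 3.05 and an adjusted p of 0.116 in edgeR. Without KOCKD replicate 3 the log2 difference was 2.60 (adjusted p = 0.032, edgeR). In wild type hearts the difference with the virus was 0.93 ± 0.67 (adjusted p = 0.481). Between WTCKD and WTSHAM it was -0.49 ± 0.67, with an interval from -1.90 to 0.93, and it turned positive (0.70) without WTSHAM replicate 1.

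The libraries high in Myh7 were low in Arntl, a core activator of the circadian clock. Arntl was at 7.67 CPM in WTSHAM replicate 1 and at 21.4 and 32.6 CPM in the other WTSHAM libraries, and at 9.99 CPM in KOCKD replicate 3 beside 23.4 and 24.5 CPM in the other KOCKD libraries. The WTCKD libraries held 30.5, 30.8 and 34 CPM of Arntl, and the 6 libraries with the virus 1.34 to 2.45 CPM. Among the sham and vector libraries, the pair with the least Arntl was thus the pair with the most Myh7, 853 and 896 CPM, and among the libraries with the virus WTCKD + RNLS replicate 2 had little of both. The atrial markers did not follow Myh7 in the same way, at 154 CPM in WTSHAM replicate 1 and 2751 CPM in KOCKD replicate 3. The part of the clock genes or of atrial tissue in the level of Myh7 was not tested.

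**Figure D3:**
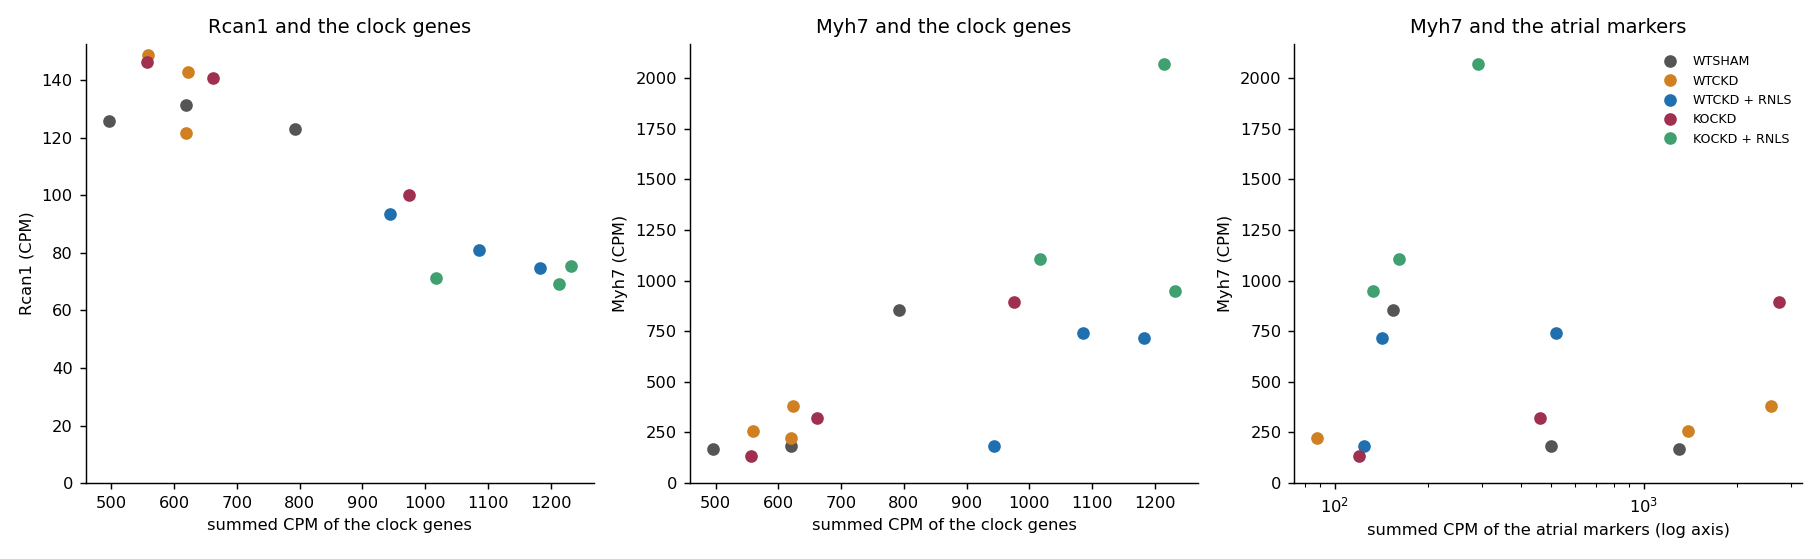
Left and middle, Rcan1 and Myh7 in CPM against the summed CPM of the clock genes; right, Myh7 against the summed CPM of the atrial markers on a log axis; each point is 1 of 15 libraries, coloured by group. Rcan1 is at 69.1 to 93.4 CPM in the 6 libraries with the virus, which sum to 944 CPM or more of clock genes, and KOCKD replicate 3, at 975 CPM of clock genes, has 100.1 CPM.

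Expressed as a share of both myosins, Myh7 made up 2.18%, 0.512% and 0.41% of the Myh6 and Myh7 counts in WTSHAM, and 0.76%, 1.13% and 0.546% in WTCKD. In WTCKD + RNLS the share was 1.55%, 0.462% and 1.59%. In KOCKD it was 0.979%, 0.423% and 2.89%, and in KOCKD + RNLS 2.33%, 4.3% and 2.16%. The fast isoform dominated all libraries, and all 5 comparisons overlapped. The log2 ratio of Myh7 to Myh6 was 1.42 higher in KOCKD + RNLS than in KOCKD (two-sided exact permutation p = 0.3) and 0.43 higher in WTCKD + RNLS than in WTCKD (exact permutation p = 0.6). Between WTCKD and WTSHAM it differed by 0.01 (exact permutation p = 1), between KOCKD and WTCKD by 0.46 (0.8) and between KOCKD and WTSHAM by 0.47 (0.6). With 3 libraries a group, no such test can go below 0.1.

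**Figure D4:**
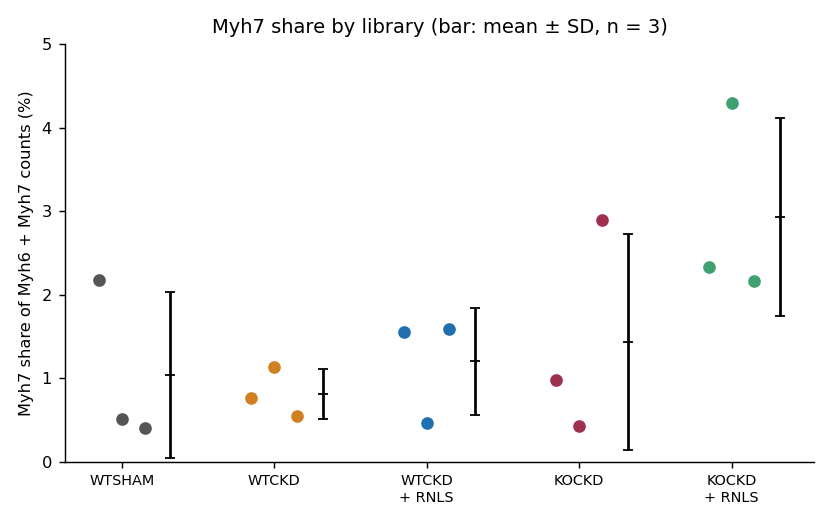
Myh7 as a percentage of the Myh6 and Myh7 counts in each of 15 libraries; points are libraries and bars the group mean ± SD of 3. The highest library, at 4.3%, is in KOCKD + RNLS, and WTSHAM, WTCKD + RNLS and KOCKD each hold libraries both under 0.6% and over 1.5%.

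A further 14 isoforms of myosin, troponin, tropomyosin and actin were listed, and all were tested. Between WTCKD and WTSHAM 1 rose, Tnnt1, slow skeletal troponin T, by 0.61 on the log2 scale (adjusted p = 0.0424, edgeR), and 0 fell. None was called between WTCKD + RNLS and WTCKD. Between KOCKD + RNLS and KOCKD 3 fell, the atrial light chains Myl7 at -8.95 (adjusted p = 0.0289, edgeR) and Myl4 at -7.38 (0.0294), and Tpm2, β-tropomyosin, at -0.83 (0.00398). Myl7 and Myl4 are on the atrial list, which differed between single libraries as given above. Between KOCKD and WTSHAM 2 rose, the ventricular light chain Myl2 by 0.43 (adjusted p = 0.0079, edgeR) and Tnni3, cardiac troponin I, by 0.40 (0.0127). The median log2 fold change of the 14 was 0.16, 0.11, -0.20, 0.10 and 0.27 across the 5 comparisons in the order given above.

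Acta1 encodes skeletal α-actin, the sarcomeric actin of the fetal heart, and lies at chr8:126415669-126418651 on the minus strand of mm9 (ENSMUSG00000031972). No stretch of 100 bases of its transcript occurs in that of another gene. In WTSHAM Acta1 stood at 1739, 787 and 459.5 CPM, and in WTCKD at 465, 592 and 520.1 CPM. The WTCKD + RNLS libraries held 79.4, 699 and 436 CPM. The KOCKD libraries held 1336, 402 and 444 CPM, and those of KOCKD + RNLS 1227, 1104 and 598 CPM. A single library set the mean in WTSHAM and in KOCKD, and the lowest value of the series, in WTCKD + RNLS replicate 1, was 21.9 times below the highest. No comparison was called, and all groups compared overlapped. The log2 difference was -0.92 ± 0.61 (SE) between WTCKD and WTSHAM (adjusted p = 0.472, edgeR), -0.38 ± 0.61 between WTCKD + RNLS and WTCKD, and 0.42 ± 0.60 between KOCKD + RNLS and KOCKD. The last 2 had 95% intervals from -1.66 to 0.91 and from -0.86 to 1.71. Single libraries moved all of these values. The first was -0.25 without WTSHAM replicate 1. The second turned to 0.11 without WTCKD + RNLS replicate 1 and was -1.04 without WTCKD + RNLS replicate 2. The third was 1.21 without KOCKD replicate 1 and 0.14 without KOCKD replicate 2, and ranged between these values with each other library left out.

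Ankrd1 encodes cardiac ankyrin repeat protein, which binds titin in the sarcomere, moves to the nucleus and is induced by stretch. It lies at chr19:36186455-36194334 on the minus strand of mm9 (ENSMUSG00000024803). Its CPM values were 1774, 1423 and 887 in WTSHAM and 1467, 1672 and 923 in WTCKD. In WTCKD + RNLS they were 1442, 1402 and 1418, the tightest group of any member. In KOCKD they were 2388, 1082 and 1879, and in KOCKD + RNLS 1967, 2639 and 1753. All compared groups overlapped. The log2 difference was 0.25 ± 0.27 (SE) between KOCKD + RNLS and KOCKD (adjusted p = 0.567, edgeR), 0.40 ± 0.27 between KOCKD and WTCKD (0.598) and 0.07 ± 0.27 between WTCKD + RNLS and WTCKD (0.922). Between WTCKD and WTSHAM it was -0.01, with an interval from -0.59 to 0.57. With 1 library left out at a time, the difference between KOCKD + RNLS and KOCKD ran from -0.01 (without KOCKD replicate 2) to 0.52 (without KOCKD replicate 1), and that between KOCKD and WTCKD from 0.13 (without KOCKD replicate 1) to 0.65 (without KOCKD replicate 2). In the same way the difference between WTCKD + RNLS and WTCKD ran from -0.15 (without WTCKD replicate 3) to 0.26 (without WTCKD replicate 2).

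Xirp1 and Xirp2 encode the Xin actin-binding repeat proteins, which tie actin to the adhering junctions of the intercalated disc. Xirp1 lies at chr9:119922873-119932716 on the minus strand of mm9 (ENSMUSG00000079243) and Xirp2 at chr2:67284059-67364671 on the plus strand (ENSMUSG00000027022). An antisense transcript, Gm13601, covers 168 exonic bases of Xirp2, or 1.4% of them, and it is not stated whether the counting used strand. Xirp2 fell in 1 comparison, so the 250 bases before its start are shown (GRCm38.p6, chr2:67445752-67446001, plus strand), with a match to the MEF2 site, the site of a family of muscle transcription factors, in capitals.
Xirp2: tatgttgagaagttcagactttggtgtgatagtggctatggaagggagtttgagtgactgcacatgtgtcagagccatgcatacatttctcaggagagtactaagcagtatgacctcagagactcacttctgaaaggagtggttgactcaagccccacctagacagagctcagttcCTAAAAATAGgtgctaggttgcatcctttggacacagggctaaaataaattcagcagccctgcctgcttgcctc
A MEF2 site on either strand was found in 2.92% of promoters of this length.

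In WTSHAM Xirp2 stood at 1122, 807 and 888 CPM, and in WTCKD at 676, 702 and 678 CPM. The KOCKD libraries held 647, 576 and 587 CPM. All libraries of WTSHAM were above those of WTCKD, which were above those of KOCKD. WTCKD + RNLS spread from 537 through 659.6 to 915 CPM, and KOCKD + RNLS held 797, 829.6 and 680.2 CPM, above KOCKD. Xirp2 fell in KOCKD against WTSHAM at a log2 fold change of -0.64 ± 0.15 (SE), or 1.56-fold (adjusted p = 0.0155, edgeR). Without KOCKD replicate 2 the value was -0.61 and the adjusted p 0.058 by edgeR. In WTCKD against WTSHAM it was -0.45 ± 0.15 (adjusted p = 0.132), in KOCKD against WTCKD -0.18 ± 0.15 (0.667) and in KOCKD + RNLS against KOCKD 0.35 ± 0.15 (0.13). Between WTCKD + RNLS and WTCKD it was 0.04 ± 0.15, with an interval from -0.29 to 0.36.

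Xirp1 moved within a narrower range. Its CPM values were 456, 312 and 323 in WTSHAM and 277, 294 and 337 in WTCKD. In WTCKD + RNLS they were 379.8, 353 and 388, above all WTCKD libraries. In KOCKD they were 314, 297 and 294, and in KOCKD + RNLS 363, 326 and 297, with overlap. The log2 difference was 0.30 ± 0.12 (SE) between WTCKD + RNLS and WTCKD (adjusted p = 0.182, edgeR) and 0.12 ± 0.12 between KOCKD + RNLS and KOCKD (0.527). It was -0.26 ± 0.12 between WTCKD and WTSHAM (0.283) and -0.27 ± 0.12 between KOCKD and WTSHAM (0.151), and WTSHAM replicate 1 held most of both, since without it the differences were -0.07 and -0.07.

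Partners of the ankyrin repeat and Xin proteins (titin, nebulette, muscle LIM protein, desmin, filamin C and junction proteins among them) were listed as 14 genes, of which 13 were tested. Ankrd23, a muscle ankyrin repeat protein of the same family as Ankrd1, fell with the virus in both genotypes. It stood at 829, 783 and 728 CPM in WTCKD and at 289, 397 and 436 CPM in WTCKD + RNLS, with a log2 fold change of -1.06 (adjusted p = 0.000329, edgeR). In KOCKD it stood at 795, 793 and 678 CPM and in KOCKD + RNLS at 348, 351 and 308 CPM, a log2 fold change of -1.17 (adjusted p = 0.000528, edgeR). Ttn, titin, rose by 0.60 in WTCKD + RNLS and by 0.59 in KOCKD + RNLS (adjusted p = 0.00912 and 0.00477, edgeR). In KOCKD + RNLS 3 of the 13 rose and 2 fell, beside 16.1% of all genes called. Nebl, nebulette, rose there by 0.50 (0.00343, edgeR), and Csrp3, muscle LIM protein, fell at -0.40 (0.00477). Between KOCKD and WTSHAM 3 fell and 0 rose, led by Nebl at -0.40 (adjusted p = 0.0122, edgeR) and Ttn at -0.37 (0.0462). None was called between WTCKD and WTSHAM.

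Rcan1 encodes regulator of calcineurin 1, which binds and restrains calcineurin and is itself induced by calcineurin-NFAT signalling from an internal start. It lies at chr16:92392198-92466391 on the minus strand of mm9 (ENSMUSG00000022951). RefSeq lists an outer start and an internal start for this gene, and the counts do not separate them. Both 250-base stretches before a start are shown, since Rcan1 is the one member called in both comparisons with the virus. The outer one lies at chr16:92466170-92466419 and the internal one at chr16:92400079-92400328 (both GRCm38.p6, minus strand). Capitals mark the E-box CACGTG in the first, the letters that clock activators and related factors read, and NFAT cores (GGAAA, or TTTCC on the printed strand) in the second.
Rcan1, outer start: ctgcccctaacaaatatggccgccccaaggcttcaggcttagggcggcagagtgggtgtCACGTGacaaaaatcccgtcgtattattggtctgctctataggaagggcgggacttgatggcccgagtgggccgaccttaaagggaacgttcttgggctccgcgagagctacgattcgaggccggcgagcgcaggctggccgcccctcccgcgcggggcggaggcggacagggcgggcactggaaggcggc
Rcan1, internal start: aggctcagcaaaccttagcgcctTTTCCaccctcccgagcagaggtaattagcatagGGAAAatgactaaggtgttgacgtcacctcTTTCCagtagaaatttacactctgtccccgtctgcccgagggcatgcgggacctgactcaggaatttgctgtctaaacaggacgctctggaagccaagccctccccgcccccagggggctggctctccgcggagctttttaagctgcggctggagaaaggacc
CACGTG was found in 6.02% of all promoters of this length, and the short GGAAA on either strand in 55.6%, of which the internal Rcan1 stretch held 3 copies. The matches are descriptions of letters only. No E-box of these letters lies in the printed stretches of the other members.

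Rcan1 stood at 149, 143 and 122 CPM in WTCKD and at 74.7, 93.4 and 81.1 CPM in WTCKD + RNLS. It stood at 141, 146 and 100.1 CPM in KOCKD and at 71.1, 69.1 and 75.3 CPM in KOCKD + RNLS. All 6 libraries with the virus were below the 9 without it, of which the WTSHAM libraries held 123, 131 and 126 CPM. Rcan1 fell with the virus in wild type hearts at a log2 fold change of -0.73 ± 0.12 (SE), or 1.66-fold (adjusted p = 0.00468, edgeR), and in knockout hearts at -0.85 ± 0.13, or 1.8-fold (adjusted p = 0.0015). By unadjusted p it was 68th and 41st of all genes tested in these comparisons, which share no library. The interaction was -0.12 ± 0.18, with an interval from -0.49 to 0.26. Rcan1 was not called between WTCKD and WTSHAM (0.12 ± 0.12, adjusted p = 0.676 by edgeR), between KOCKD and WTCKD (-0.09 ± 0.12, 0.795) or between KOCKD and WTSHAM (0.02 ± 0.12, 0.916). In order of level the groups were WTCKD (138 ± 14.1 CPM, SD, n = 3), KOCKD (129 ± 25.2), WTSHAM (127 ± 4.22), WTCKD + RNLS (83.1 ± 9.51) and KOCKD + RNLS (71.8 ± 3.2), with overlap among the first 3 groups and between the last 2.

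The clock genes moved in the same comparisons as Rcan1. Of the 15 tested, 9 rose and 3 fell between WTCKD + RNLS and WTCKD, and 8 rose and 2 fell between KOCKD + RNLS and KOCKD. In these comparisons edgeR called 4.47% and 16.1% of all genes. Arntl fell most, at log2 fold changes of -4.06 (adjusted p = 0.000329, edgeR) and -3.66 (0.000971). Per2, a repressor of the clock, rose by 3.07 in wild type hearts (0.00867) and by 2.37 in the knockout (0.0126). Ciart, another repressor, rose by 3.65 in wild type hearts (0.00783) and by 1.79 in the knockout (0.0465). KOCKD replicate 3, the library without the virus that had the highest clock sum (975 CPM), also had the least Rcan1 of the 9. WTSHAM replicate 1, with 793 CPM, had 123 CPM of Rcan1. The part of the clock genes in the level of Rcan1 was not tested, and no time of day for the collection of hearts is given in the sources used here.

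Genes of the calcineurin-NFAT pathway other than Rcan1 were listed as 17, all tested. None was called between WTCKD and WTSHAM, between WTCKD + RNLS and WTCKD or between KOCKD and WTCKD, by edgeR. Between KOCKD + RNLS and KOCKD 7 rose and 0 fell, where 16.1% of all genes were called. The list median was 0.29 beside -0.01 over all genes. Nfat5, a tonicity-responsive member of the NFAT family that does not depend on calcineurin, rose most, by 0.84 (adjusted p = 0.0201, edgeR), followed by the transcription factor Mef2c, by 0.43 (0.00676). Between KOCKD and WTSHAM 2 fell, Nfat5 at -0.87 (adjusted p = 0.0207, edgeR) and Nfatc3, a calcineurin target, at -0.32 (0.0429). These comparisons share the KOCKD libraries. In the interaction none of the 17 was called.

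The transcription factors listed for the fetal programme numbered 17, of which 15 were tested. In WTCKD + RNLS against WTCKD 2 rose, Nkx2-5, a cardiac homeobox factor, by 0.37 (adjusted p = 0.0279, edgeR) and Myocd, myocardin, by 0.31 (0.0352). In KOCKD + RNLS against KOCKD 4 rose and 1 fell, beside 16.1% of all genes called. Thrb, a thyroid hormone receptor, rose by 0.71 (adjusted p = 0.00113, edgeR), from 15.7, 16.4 and 16.7 CPM in KOCKD to 26.8, 27.4 and 25.6 CPM. Mrtfb, an actin-regulated coactivator, rose by 0.55 (0.0209). Myocd rose by 0.30 (0.0201), having risen in wild type hearts too, while Nkx2-5 fell at -0.29 (0.041, edgeR). The difference between the genotypes in Nkx2-5 was -0.66 ± 0.13 (SE) and did not pass the test of the interaction (adjusted p = 0.105, edgeR). In KOCKD against WTSHAM 3 fell and 0 rose. They were Tead1, which binds MCAT motifs, at -0.60 (adjusted p = 0.00123, edgeR), Thrb at -0.49 (0.00605) and Myocd at -0.42 (0.00462). None was called between WTCKD and WTSHAM.

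Growth and stretch response genes (ligands, receptors, LIM proteins, immediate early genes and matrix regulators) were listed as 22, of which 20 were tested. Tgfb1, the fibrogenic cytokine TGF-β1, rose in WTCKD against WTSHAM by 0.53 (adjusted p = 0.0144, edgeR) and fell in WTCKD + RNLS against WTCKD at -0.58 (0.00753), comparisons that share the WTCKD libraries. In WTCKD + RNLS 3 of the 20 fell and 0 rose, with Myc at -1.28 (adjusted p = 0.0247, edgeR) and Igf1, insulin-like growth factor 1, at -0.84 (0.0488). Myc was low throughout, at 2.51 to 8.93 CPM. In KOCKD + RNLS against KOCKD 1 fell, again Igf1, at -0.78 (adjusted p = 0.0352, edgeR). In KOCKD against WTSHAM Tgfb1 rose by 0.38 (adjusted p = 0.0324, edgeR), and Timp1, an inhibitor of matrix metalloproteinases, fell at -1.19 (0.0429), as did Il6st, the shared receptor of interleukin 6 cytokines, at -0.35 (0.0286). The list median was -0.31, -0.31, -0.35, 0.12 and -0.10 across the 5 comparisons.

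Markers of other cell types moved as well. The macrophage markers summed to 341 to 473 CPM in WTSHAM, 276 to 330.4 CPM in KOCKD and 184 to 239 CPM in KOCKD + RNLS. The endothelial markers summed to 1145 to 1323 CPM in WTCKD and to 838 to 907 CPM in WTCKD + RNLS, where 3 of 5 fell. They summed to 1017 to 1203 CPM in KOCKD and to 972 to 986 CPM in KOCKD + RNLS. In that pair 4 of 5 had a negative fold change and 1 was called, Pecam1 at -0.29 (adjusted p = 0.0395, edgeR). The fibroblast markers summed to 1192 to 1627 CPM in WTSHAM and 849 to 1090.0 CPM in KOCKD, where 3 of 6 fell. Of these 6 markers 1, Col1a1, a collagen I chain, was called with the virus. It fell in both genotypes, at -0.95 in wild type (adjusted p = 0.0488, edgeR) and -1.10 in knockout hearts (0.0124). The median of the 6 was -0.37 in wild type and -0.13 in knockout hearts, where 2 of the 6 had a positive fold change. Of the activated fibroblast markers 1 of 5, Postn, periostin, fell with the virus in both genotypes, at -1.27 in wild type (adjusted p = 0.0142, edgeR) and -0.85 in knockout hearts (0.0437). Of the same 5 markers 2 fell in KOCKD against WTSHAM, Cilp, a cartilage layer protein, at -2.11 (adjusted p = 0.00306, edgeR) and Fn1, fibronectin, at -0.74 (0.0246). Of the erythrocyte markers 1 of 5, Hbb-bs, a β-globin, rose in WTCKD + RNLS against WTCKD by 2.72 (adjusted p = 0.0494, edgeR). Smooth muscle and pericyte markers were called in no comparison by edgeR. The part of these cells in the levels of the members was not tested.

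The members differed widely in their spread within groups. The within-group SD of log2 CPM, pooled over the 5 groups, was 1.04 for Myh7 and 0.99 for Acta1, both above 99% of all genes tested. It was 0.40 for Nppb, 0.42 for Ankrd1, 0.22 for Xirp2, 0.17 for Rcan1, 0.17 for Xirp1 and 0.10 for Myh6, against a median of 0.18 over all 13021 genes and 0.11 over the 1660 genes with a mean over 100 CPM. WTSHAM replicate 1 was the highest of its group for Nppb, Myh7, Acta1, Ankrd1, Xirp1 and Xirp2 but not for Myh6 or Rcan1. WTCKD + RNLS replicate 1 was the lowest of its group for Nppb, Acta1, Xirp2 and Rcan1.

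**Figure D5:**
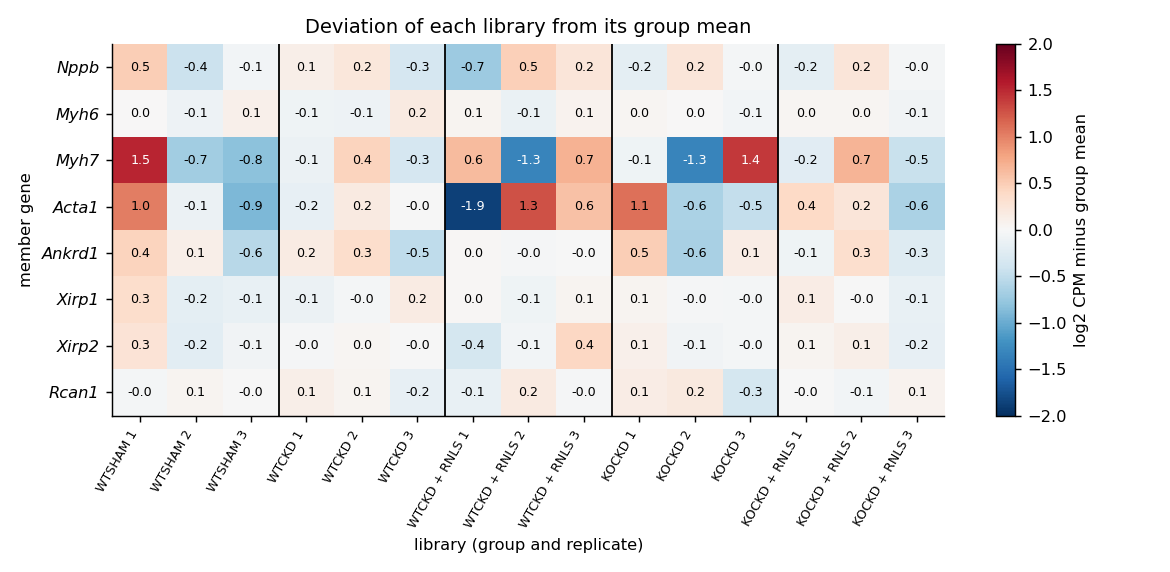
Log2 CPM of each member (rows) in each library (columns) minus the mean of its group; red is above and blue below, and black lines separate the groups. Myh7 and Acta1 hold the largest deviations, Acta1 in WTCKD + RNLS replicate 1 the lowest, and WTSHAM replicate 1 is above its group mean for Nppb, Myh7, Acta1, Ankrd1, Xirp1 and Xirp2, level with it for Myh6 and below it for Rcan1.

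Across the 15 libraries, 3 of the 28 pairs of members were correlated at an adjusted p under 0.05. Myh6 and Rcan1 had a Pearson r of -0.79 (permutation p = 0.0011, adjusted 0.0215) and a Spearman rho of -0.80 (permutation p = 0.00059, adjusted 0.00924). Myh7 and Ankrd1 had r = 0.72 (permutation p = 0.0023, adjusted 0.0215) and rho = 0.79 (permutation p = 0.00066, adjusted 0.00924). Myh7 and Rcan1 had r = -0.75 (permutation p = 0.00221, adjusted 0.0215) and rho = -0.70 (permutation p = 0.00506, adjusted 0.0472). Without the 2 libraries farthest from the median of the first gene, r was -0.91, 0.59 and -0.63. On deviations from the group means r was -0.36, 0.63 and -0.67, and 0 of the 28 pairs passed (smallest permutation p = 0.0275, adjusted 0.4), so no relation passed its test within groups. Myh6 and Myh7 had r = 0.48 over all libraries (permutation p = 0.0748, adjusted 0.262) and r = 0.09 within groups.

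The genes whose pattern over the 15 libraries was most like each member were taken among 11719 tested genes with an average log2 CPM over 1, as a description. For Myh7 they were Bhlhe40, a repressor tied to the clock (r = 0.86), Zrsr1 (0.84) and Evi5 (0.84). For Rcan1 they were Ankrd23 (0.95), Rpn2 (0.95) and Fam220a (0.94), and for Myh6 Vps13d (0.97), Ubr2 (0.95) and Pde4d, a cyclic AMP phosphodiesterase (0.94). Nppb was most like Mkks (0.88), Nmd3 (0.88) and Klk8 (0.86), and Acta1 most like Nkain1 (0.90), Ap1s2 (0.87) and Trex1 (0.85). Ankrd1 was most like Nt5dc1 (0.82), Gm13212 (0.81) and Serpinb6b (0.80), Xirp1 most like Ptpn11 (0.93), Plin4 (0.85) and Tgm2 (0.84), and Xirp2 most like Trak2 (0.91), Adam9 (0.89) and Ilrun (0.87).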

How the data were processed

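Counts and FPKM of 15 mouse heart libraries were used. The authors trimmed the reads with Trimmomatic, mapped them with hisat2, counted them per gene with htseq-count, and the counts were deposited without normalization. FPKM per library were also deposited by the authors, computed with cufflinks by their account, and equal the counts divided by a fixed length and the library total. The study's methods name mm9, while the submitters' processing notes name GRCm39; versions and the strand option are not given in the sources used here. Positions of members are those of GENCODE vM1 on mm9, and promoters those of RefSeq on GRCm38.p6, where 7 of the 8 members matched; Xirp1 did not.

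Samples were grouped by their titles. All tests used the counts in R 4.3.3 with edgeR 4.0.16 (TMM, default filter with a minimum count of 10, minimum total of 15, quasi-likelihood fit of the group over all 15 libraries, Benjamini-Hochberg over 13021 genes). DESeq2 1.42.0 was an alternative. Log2 CPM had a prior count of 2 and the myosin ratio a pseudocount of 0.5, tested by exact permutation with scipy 1.17.1. Correlations had 100000 permutations. Other alternatives were no filter, RLE factors, a replicate block, only the 6 libraries compared, each library left out, and for the ratio FPKM or a pseudocount of 5. The study's rule of a minimum fold change with an unadjusted p under 0.05 was also applied, to the edgeR p-values. Leaving a library out kept the fit over all others. The code was tested on simulated data. Python 3.11.15 with matplotlib 3.10.9 and biopython 1.88 (global alignment of coding sequences) served for the rest.

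The members, marker lists and pathway lists were chosen from general knowledge, with earlier results of these data known. All 8 members are named in every comparison. Of other lists, at most 2 called genes that rose most and 2 that fell most in a comparison are named. A gene so named may also be given in other comparisons where it was called. Per member, the 3 genes most correlated with it are named, among tested genes with an average log2 CPM over 1, members excluded. Rnls was not analysed here. Total counts of 10480788 to 13424078 per library put even the lowest member value of Rcan1, at 69.1 CPM, far above counting error, so the spread between libraries sets the precision.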

Additional observations from a re-analysis of the deposited data

How the results depend on the processing

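Of 568 values of single members under alternatives, 554 stayed on their side of the threshold, 9 came to pass it and 5 came to miss it, and no called value changed sign. Between WTCKD + RNLS and WTCKD the count of members called rose from 1 to 2 with DESeq2. Between KOCKD + RNLS and KOCKD it rose from 2 to 5 with only the 6 libraries compared and to 5 under the study's rule of a minimum fold change with an unadjusted p, each time adding Nppb, Myh7 and Xirp2. That rule also gave 1 in place of 0 between WTCKD and WTSHAM (Xirp2) and 1 in place of 0 between KOCKD and WTCKD (Nppb). Leaving out 1 library at a time gave 1 to 2 members called between WTCKD + RNLS and WTCKD, 2 to 3 between KOCKD + RNLS and KOCKD, 0 to 3 between KOCKD and WTSHAM, 2 to 4 for any difference among the 5 groups, and 0 in the other 3 tests. The calls of Rcan1 held in every one of these fits.

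The log2 ratio of Myh7 to Myh6 ranged, with 1 library left out, from 0.74 to 2.15 between KOCKD + RNLS and KOCKD, from 0.13 to 1.03 between WTCKD + RNLS and WTCKD, from -0.45 to 0.77 between WTCKD and WTSHAM, from -0.27 to 1.13 between KOCKD and WTCKD and from -0.26 to 1.23 between KOCKD and WTSHAM. Over all genes, DESeq2 called 568 in place of 299 between WTCKD and WTSHAM, 362 in place of 0 in the interaction and 9 in place of 0 between KOCKD and WTCKD. For this last comparison, no filter gave 5, RLE size factors 4 and the replicate block 1. With only the 6 libraries compared, edgeR called 99 genes between WTCKD and WTSHAM, 380 in place of 582 between WTCKD + RNLS and WTCKD, 1127 in place of 1795 between KOCKD and WTSHAM and 2 between KOCKD and WTCKD. With 1 library left out these counts ranged from 136 to 380, 209 to 761, 723 to 2053 and 0 to 3, and from 862 to 1476 in place of 2095 between KOCKD + RNLS and KOCKD. Another scaling shifted the median log2 fold change over all genes by 0.01 or less.

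With the replicate block, edgeR called 0, 1, 2, 0 and 2 members in the 5 comparisons, 0 in the interaction and 2 in place of 3 for any difference among the 5 groups, where Xirp2 was lost. Same-numbered libraries correlated at -0.36 to 0.23 in their deviations, so the numbers were not taken to pair mice. Every library of the first group correlated best with its own number between KOCKD + RNLS and KOCKD (3 of 3), while 0 or 1 of 3 did in the other 4 comparisons. Depth does not limit the members, whose lowest value in any library was 69.1 CPM. The number of libraries does, as the intervals of Myh7 and Acta1 show.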
